A study of Brachypodium distachyon with 12 samples.

Results

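Ageing of the shoot was followed in wild-type Brachypodium distachyon of the line Bd21-3, a small temperate grass used as a model for cereals, by comparing the messenger RNA of whole shoots at week 4 with that of whole shoots at week 2. The comparison takes 6 of the series' 12 libraries, 3 for each week, and every gene of the authors' count table. Of 39068 genes in that table, 26463 had enough counts to be tested, and 19668 of these (74.3%) carry a description of function. All plants were untreated and of the same genotype. They grew without soil, 2 seedlings to a vessel holding 40 mL of 0.5× MS, a mineral nutrient medium, with a day of 16 h, a night of 8 h, 22 °C, 50% humidity and 150 µmol m-2 s-1 of light. The labels state that the 3 biological replicates came from different plants, and the other 6 libraries are roots of the same design. A gene is referred to as called where edgeR's quasi-likelihood test gave an adjusted p under 0.05, and levels are counts per 1e+06 of the scaled library (CPM), which are not corrected for gene length.

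A grass shoot is made by a small meristem hidden at its base, together with a zone of dividing cells at the foot of each young leaf. Cells leave that zone, stop dividing, enlarge by loosening and rebuilding their walls, and fill with chloroplasts, so that a leaf is youngest at its base and oldest at its tip. As the plant ages, the share of tissue that has finished growing rises, and the oldest leaves later dismantle their chloroplasts and export nitrogen, a process called senescence in which WRKY and NAC transcription factors, autophagy and protein degradation take part. The later change from leaf to flower formation is governed in part by day length, through CONSTANS, FLOWERING LOCUS T and MADS-box factors.

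The shoot libraries held 20044972 to 24186744 counts at week 2 and 20964844 to 24119000 at week 4. The tissue label held in all of them, since 70 photosystem and antenna genes summed to 110078 to 149006 CPM in shoots and to 2292 to 14161 CPM in roots. The 3 libraries of week 4 were less alike than those of week 2. On the first principal component of the 6 libraries, which carried 67.7% of the variance, the week 2 replicates stood at -95.5, -89.4 and -72.8 and the week 4 replicates at 29.9, 101 and 127. Week 4 replicate 1 thus lay between the other week 4 libraries and week 2, and lists for which leaving it out turned the balance of the calls or moved the median by more than 0.1 on the log2 scale are given with and without it. Because each week was harvested from different plants, and the labels give no harvest or sequencing batch, plant age and a batch of the same week cannot be told apart. Whole shoots mix many cell types, so that fewer cells of a type and less RNA per cell cannot be told apart either. Traces of root tissue were looked for through 21 tested genes named for root structures, which summed to 163, 159 and 158 CPM in week 2 shoots and to 159.8, 166 and 157 CPM in week 4 shoots. These sums hardly differed between the libraries, and most of them came from a pair of genes matched to ROOT HAIR DEFECTIVE 3, which shoots express as well. A subset set out after values had been seen, 18 genes described as root cap, root lectin or Casparian strip genes, summed to 12.5, 6.37 and 6.36 CPM in week 2 shoots and to 4.18, 5.07 and 4.77 CPM in week 4 shoots, with 6 of them at 0 in every week 2 shoot and 11 at 0 in every week 4 shoot. The highest sum was that of week 2 replicate 1.

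The shoot's transcriptome changed broadly between the weeks, and the falls were larger than the rises. Of the 26463 genes tested, 8966 were called (33.9%), 3827 of them higher at week 4 (14.5%) and 5139 lower (19.4%). The median log2 fold change was 0 over all tested genes, 0.69 over those called higher and -1.11 over those called lower. A change of at least 8-fold was seen for 80 genes called higher and 675 called lower. Genes called higher made up 42.7% of the calls, and 37.4% when the 50 most counted genes were left out of the scaling, which moved the median of all genes to -0.03. The 3 libraries of each week did not overlap for 49% of all tested genes. Without week 4 replicate 1 there were 8783 calls, of which 7755 were shared with the full set and 0 had the opposite sign. In that left-out library the direction was the same for 98.5% of the genes called higher without it, with a median shift of 0.55 against 0.75 on the log2 scale in the other week 4 libraries. For the genes called lower without it the share was 97.7%, with a median shift of -0.71 against -1.21. These shifts were all taken against the week 2 libraries that also entered the choice of the genes. The shares are thus not an independent check. The number called higher fell below 3827 by more than a factor of 1.5 when a single other library was left out, to 2108 without week 2 replicate 2, 2389 without week 4 replicate 2 and 2365 without week 4 replicate 3. In what follows, the 10 largest rises and falls are those among called genes with a description, at least 20 CPM on average and no overlap of the weeks. For these genes the lack of overlap is thus a condition of the choice and not a result. Within a list, the largest rise and fall are those of called members with at least 5 CPM on average.

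**Figure D1:**
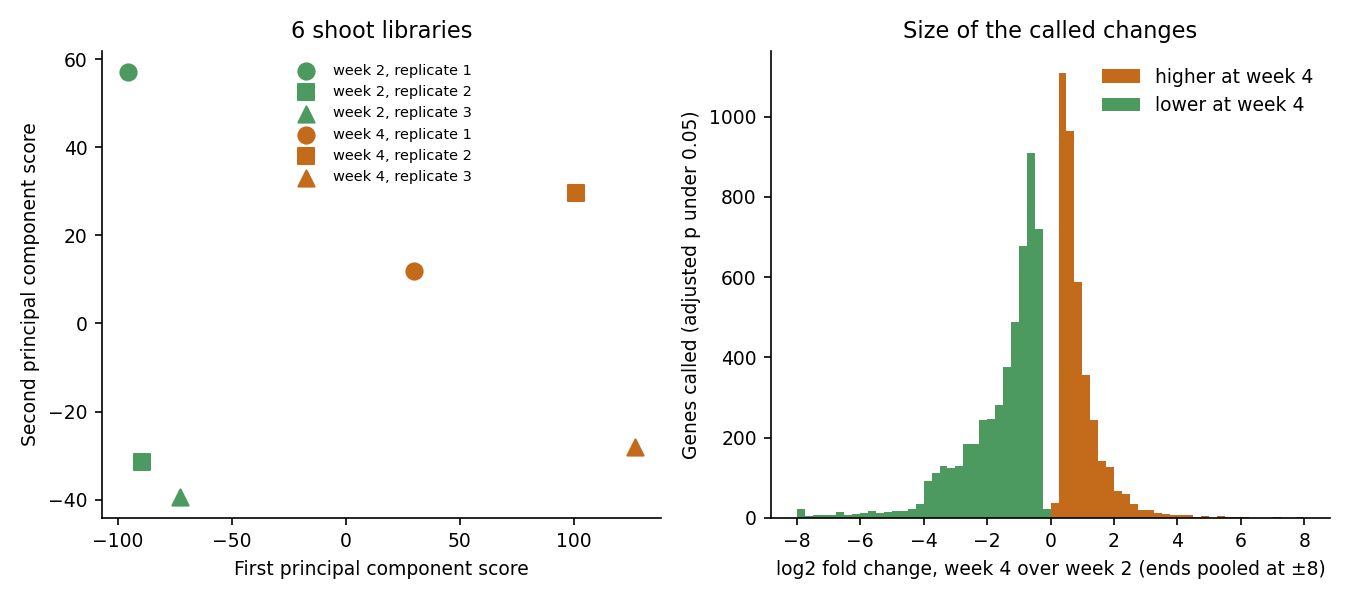
Left: the 6 shoot libraries on their first and second principal components (arbitrary units), which carried 67.7% and 10.4% of the variance. Right: number of called genes (vertical axis) by log2 fold change of week 4 over week 2 (horizontal axis), with 3827 genes above 0 and 5139 below; the tail of falls is the longer one.

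**Figure D2:**
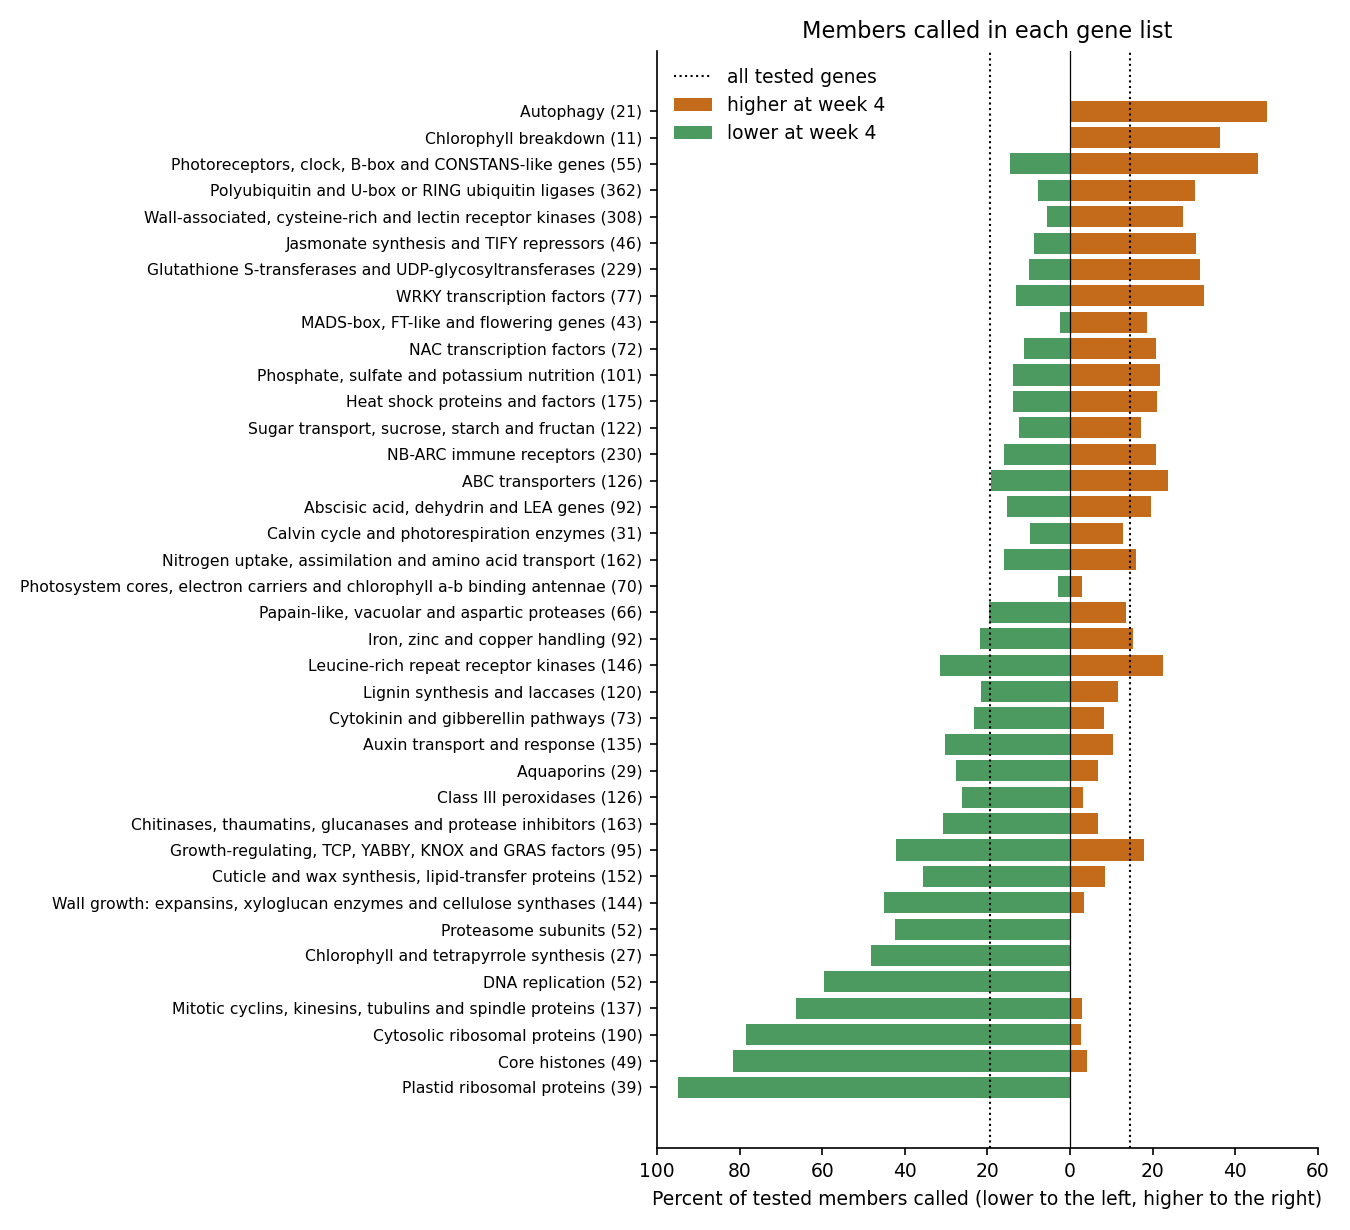
Percent of each gene list's tested members that were called higher (right) or lower (left) at week 4, with dotted lines at the shares over all tested genes, 14.5% higher and 19.4% lower. Chloroplast ribosome, core histone and cytosolic ribosome genes have the highest shares called lower.

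Genes for the histones that package newly copied DNA had the lowest median of the 38 lists. Of 49 tested core histone genes, 40 were called lower and 2 higher, with a median log2 fold change of -2.49 beside 0 over all tested genes. The families in this and the following paragraphs were set out after their values had been seen. All 10 genes named H3 but not H3.3 summed to 438, 434 and 377 CPM at week 2 and to 86.5, 8.14 and 5.67 CPM at week 4, and 9 of them were called lower. Every week 4 sum lay far below the week 2 sums, replicate 1 the least so. Of the 13 H4 genes 12 were called lower, of the 11 H2B genes 10, and of the 12 H2A genes 9. Histone H3.2 (BdiBd21-3.4G0107400) read 84.5, 75.4 and 70.5 CPM at week 2 and 14.1, 0.569 and 0.847 CPM at week 4 (log2 fold change -3.86 with an SE of 0.89, adjusted p = 0.00882). The largest fall among members of at least 5 CPM was that of a histone H4 gene (BdiBd21-3.2G0303000), which read 17.3, 12.5 and 12.6 CPM at week 2 and 2.00, 0.285 and 0.159 CPM at week 4 (log2 fold change -4.05 with an SE of 0.62, adjusted p = 0.00107). In both genes the week 4 libraries lay below every week 2 library, and replicate 1 kept more than the other week 4 replicates. For the H3.2 gene the lack of overlap was a condition of its choice among the 10 largest falls. The replacement histone H3.3, which is laid down outside DNA replication, did not share the fall. The H3.3 gene with the most counts (BdiBd21-3.1G0663100) stood at 465, 427 and 413 CPM at week 2 and 537, 430.1 and 433 CPM at week 4, with a log2 fold change of 0.10 that did not pass the test (SE 0.12, adjusted p = 0.528). The weeks overlapped for it, and 0 of 3 H3.3 genes were called in either direction. Histone H2B.1 (BdiBd21-3.2G0306200), of which the list shows the largest rise, stood at 6.78, 7.34 and 6.84 CPM at week 2 and 11.7, 9.11 and 9.48 CPM at week 4 (log2 fold change 0.53 with an SE of 0.18, adjusted p = 0.0420). All week 4 values of H2B.1 were above those of week 2, but its call was lost without any one of the 6 shoot libraries, week 2 root replicate 2 or week 4 root replicate 1 (adjusted p = 0.0517 to 0.187). The call went too with the scaling without the 50 most counted genes, no low-count filter or a replicate block (adjusted p = 0.0574 to 0.0667). Copies within these families are near-identical, so counts of single copies are uncertain, while family sums are less so.

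Another histone H4 gene (BdiBd21-3.2G0299400) stood at 68.1, 67.8 and 60.3 CPM at week 2 and 11.7, 1.02 and 0.741 CPM at week 4 (log2 fold change -3.84 with an SE of 0.79, adjusted p = 0.00509). A further histone H4 gene (BdiBd21-3.5G0253100) stood at 42.9, 42.9 and 38.9 CPM at week 2 and 8.41, 0.171 and 0 CPM at week 4 (log2 fold change -3.81 with an SE of 1.03, adjusted p = 0.0179). Histone H2A variant 2 (BdiBd21-3.3G0344800) stood at 122, 122 and 110.1 CPM at week 2 and 22.6, 1.42 and 1.17 CPM at week 4 (log2 fold change -3.79 with an SE of 0.89, adjusted p = 0.00938). All 3 belong to the 10 largest falls. So did high mobility group B protein 7 (BdiBd21-3.3G0171100), a DNA-bending chromatin protein, with 37.1, 38.5 and 38.6 CPM at week 2 and 6.87, 0.114 and 0.530 CPM at week 4 (log2 fold change -3.88 with an SE of 0.85, adjusted p = 0.00679). In each of these genes week 4 replicate 1 kept a visible part of the week 2 level while the other replicates were near 0. When the 6 shoot libraries were fitted without the roots, 26 core histone genes were called lower in place of 40, and the calls of the H3.2 gene, these H4 genes, H2A variant 2 and high mobility group B protein 7 were lost (adjusted p = 0.0751, 0.0573, 0.112, 0.0793 and 0.0671). Without week 4 replicate 1 the count was 40 and the median -3.31.

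The machinery that copies DNA fell with the histones. Of 52 tested replication genes 31 were called lower and 0 higher, with a median log2 fold change of -1.0, and 33 were lower without week 4 replicate 1, with a median of -1.21. The 6 subunits of the MCM helicase, the ring that opens the double helix, were all called lower. They summed to 253, 246 and 229 CPM at week 2 and to 57.8, 11.8 and 10.0 CPM at week 4. MCM2 (BdiBd21-3.4G0269800) stood at 56.2, 56.9 and 56.7 CPM at week 2 and 12.4, 2.16 and 1.75 CPM at week 4 (log2 fold change -3.36 with an SE of 0.60, adjusted p = 0.00268). The 32 kDa subunit of replication protein A (BdiBd21-3.3G0795400), which coats single-stranded DNA, stood at 11.0, 11.9 and 10.3 CPM at week 2 and 1.63, 0.569 and 0.106 CPM at week 4 (log2 fold change -3.80 with an SE of 0.52, adjusted p = 6.02e-04). Proliferating cell nuclear antigen (BdiBd21-3.3G0723500), the clamp that holds polymerases on DNA, stood at 54.5, 58.6 and 51.0 CPM at week 2 and 23.6, 15.4 and 9.69 CPM at week 4 (log2 fold change -1.75 with an SE of 0.27, adjusted p = 9.85e-04). Each of these genes was lower in every week 4 library than in any week 2 library, and the clamp kept the largest part of its level. DNA polymerase and primase subunits were called lower in 9 of 11 genes, and ribonucleotide reductase, which makes the DNA building blocks, in 3 of 4. The clamp loader, replication factor C, was called lower in 2 of 7 genes, replication protein A in 3 of 10 and the GINS complex, a partner of the helicase, in 2 of 5. Its large subunit (BdiBd21-3.4G0229400), replication factor C subunit 1, stood at 63.4, 64.5 and 65.8 CPM at week 2 and 58.0, 58.1 and 55.2 CPM at week 4, with a log2 fold change of -0.18 that did not pass the test (SE 0.08, adjusted p = 0.127). MCM2, the clamp and the 70 kDa subunit of replication protein A were added after values had been seen. That subunit (BdiBd21-3.1G0943400) had 41.5, 41.8 and 37.2 CPM at week 2 and 8.97, 0.228 and 0 CPM at week 4 (log2 fold change -3.66 with an SE of 1.01, adjusted p = 0.0194), and its call was lost in the fit of the shoot libraries alone (adjusted p = 0.121).

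Genes of the mitotic cycle and the spindle fell in most members. Of 137 tested genes 91 were called lower and 4 higher, with a median log2 fold change of -1.22, and 96 were lower without week 4 replicate 1, with a median of -1.43. Cyclins of the A and B classes, which drive entry into mitosis, were called lower in 8 of 11 genes, and the plant-specific kinase CDKB, active at that entry, in 3 of 3. Kinesins, motors of which many move chromosomes and build the division wall, were called lower in 43 of 57 genes. Cyclin-A3-1 (BdiBd21-3.1G0198400) stood at 16.1, 12.7 and 12.8 CPM at week 2 and 2.23, 0.0569 and 0.0530 CPM at week 4 (log2 fold change -4.06 with an SE of 0.78, adjusted p = 0.00345). The spindle motor KIN-5A (BdiBd21-3.4G0627700) stood at 40.1, 40.1 and 39.7 CPM at week 2 and 7.29, 0.797 and 0.265 CPM at week 4 (log2 fold change -3.80 with an SE of 0.78, adjusted p = 0.00509). Week 4 replicates 2 and 3 lay near 0 for both, and replicate 1 lay between them and week 2. Cyclin-B1-1 (BdiBd21-3.2G0675300; chromosome 2, 51522813 to 51526985 in the deposited table), added after values had been seen, read 45.4, 48.3 and 46.4 CPM at week 2 and 9.89, 0 and 0 CPM at week 4 (log2 fold change -3.78 with an SE of 1.10, adjusted p = 0.0250). It fell to 0 in 2 of the 3 week 4 libraries. Its call was lost in the fit of the shoot libraries alone (adjusted p = 0.138) and without week 2 shoot replicate 2 (adjusted p = 0.0522), and over all alternatives its adjusted p ran from 1.76e-07 to 0.148. KIN-5A lost its call in the fit of the shoot libraries alone (adjusted p = 0.0569).

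Tubulins, the subunits of microtubules in dividing and enlarging cells alike, were called lower in 12 of 13 genes. Tubulin alpha-1 (BdiBd21-3.1G0136800), with the most counts of the list, stood at 1387, 1619 and 1342 CPM at week 2 and 849.7, 696 and 450.1 CPM at week 4 (log2 fold change -1.12 with an SE of 0.20, adjusted p = 0.00198). Tubulin beta-5 (BdiBd21-3.2G0281200), chosen after values had been seen, stood at 318, 376 and 333 CPM at week 2 and 166, 91.9 and 53.3 CPM at week 4 (log2 fold change -1.72 with an SE of 0.34, adjusted p = 0.00336). Tubulin alpha-2 (BdiBd21-3.1G0939500), the single member called higher, moved the other way and stood at 52.9, 57.3 and 65 CPM at week 2 and 96.4, 139 and 112 CPM at week 4 (log2 fold change 0.99 with an SE of 0.15, adjusted p = 9.14e-04). The weeks did not overlap for any of the 3, and alpha-2 was the highest in week 4 replicate 2. Genes of the anaphase-promoting complex, which tags mitotic proteins for breakdown, were called lower in 3 of 13, and of the microtubule bundler MAP65 in 4 of 10.

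Over the histone, replication and mitosis lists together, 162 of 238 genes were called lower. Set against the week 2 mean, the median of these 162 genes stood at 32.9% in week 4 replicate 1, at 15.5% in replicate 2 and at 12.5% in replicate 3. Replicate 1 was the highest of week 4 for 153 of them, and below every week 2 library for all 162. In 53 genes both other replicates were under 5% of week 2, which held for 1 gene in replicate 1.

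**Figure D3:**
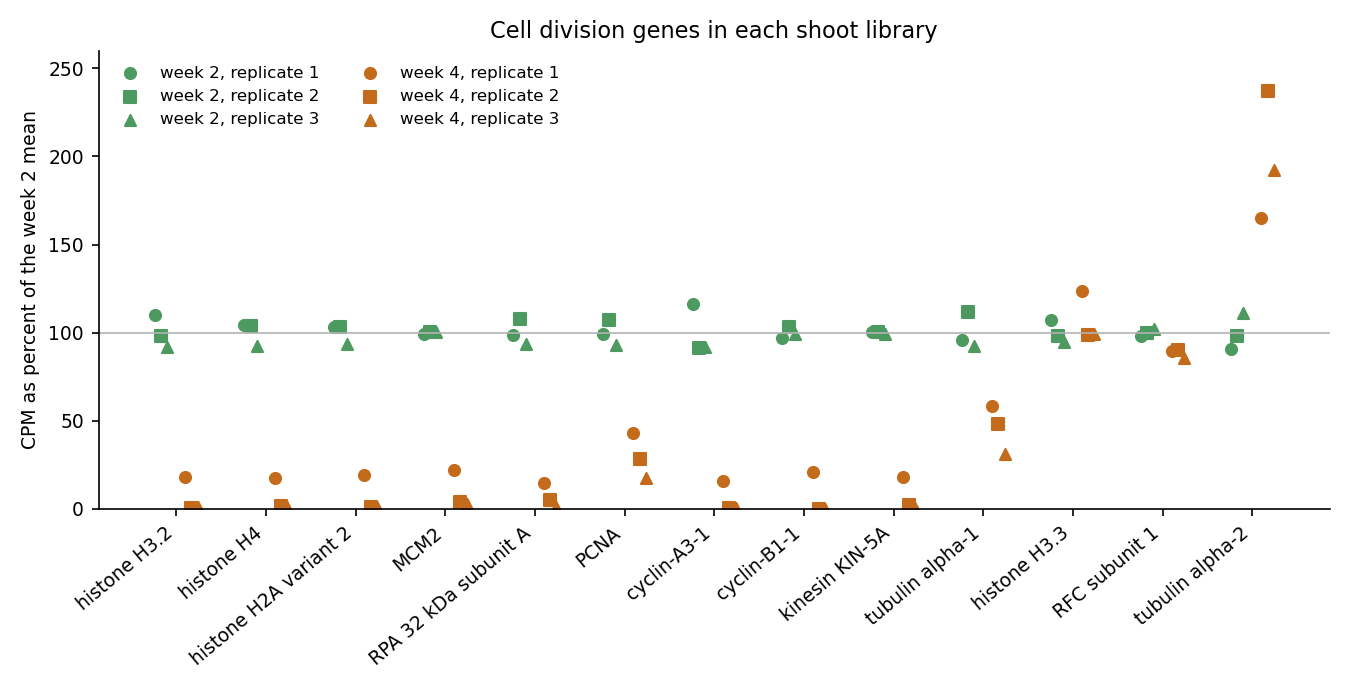
Level of 13 division genes in each shoot library as a percent of the gene's week 2 mean (vertical axis, percent of week 2 mean CPM), 1 point per library. For the histone H3.2, H4 and H2A genes, MCM2, the cyclins and KIN-5A, week 4 replicate 1 lies between week 2 and the other week 4 libraries, which are near 0; histone H3.3 and RFC subunit 1 lie near the week 2 mean and tubulin alpha-2 above it.

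Regulators of the meristem and of leaf growth fell more often than they rose. Of 95 tested genes of this kind 40 were called lower and 17 higher, with a median log2 fold change of -0.55. Growth-regulating factors, which prolong division in young leaves, were called lower in 9 of 12 genes, YABBY factors, which act in forming the leaf blade, in 4 of 6, and TCP factors, which time the end of division, in 5 of 7. KNOX homeobox factors, which keep meristem cells undetermined, were called lower in 6 and higher in 3 of 10 genes, and squamosa promoter-binding-like factors lower in 7 and higher in 3 of 15. Scarecrow-like GRAS factors, the most numerous family of the list, went the other way on balance, with 8 called higher and 5 lower of 37 (median 0.10), and summed to 126%, 133% and 133% of the week 2 mean in the week 4 replicates. The whole list summed to 105%, 114% and 111% of the week 2 mean in the week 4 replicates. KNOX factors summed to 110%, 131% and 124%, and squamosa promoter-binding-like factors to 109%, 118% and 117%. The sums of growth-regulating, YABBY and TCP factors lay below the week 2 mean in every week 4 replicate. The list without week 4 replicate 1 had 44 called lower and 14 higher, with a median of -0.76. The first 3 of the genes that follow were chosen after values had been seen. Rough sheath 1 (BdiBd21-3.1G0773000) stood at 7.99, 4.88 and 5.60 CPM at week 2 and 0.372, 0 and 0 CPM at week 4 (log2 fold change -5.45 with an SE of 0.83, adjusted p = 9.35e-04). It was at 0 in week 4 replicates 2 and 3. KNOX3 (BdiBd21-3.1G0135700) stood at 8.64, 7.30 and 8.19 CPM at week 2 and 0.883, 0.0569 and 0 CPM at week 4 (log2 fold change -4.58 with an SE of 0.92, adjusted p = 0.00988). Growth-regulating factor 1 (BdiBd21-3.3G0756900) stood at 15.1, 13.4 and 9.38 CPM at week 2 and 2.23, 0.285 and 0.371 CPM at week 4 (log2 fold change -3.65 with an SE of 0.56, adjusted p = 0.00109). Neither gene's weeks overlapped. The call of KNOX3 was lost with DESeq2 (adjusted p = 0.0764, against 1.20e-04 to 0.0764 over all alternatives).

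Scarecrow-like protein 28 (BdiBd21-3.1G0657800), a GRAS factor with the largest fall of the list, stood at 15.1, 18.4 and 17.2 CPM at week 2 and 3.53, 0 and 0 CPM at week 4 (log2 fold change -3.77 with an SE of 0.98, adjusted p = 0.0153). Its call was lost in the fit of the shoot libraries alone (adjusted p = 0.102). CUP-SHAPED COTYLEDON 2 (BdiBd21-3.1G0192900), a NAC factor of organ boundaries, showed the largest rise of the list, with 3.02, 3.86 and 3.83 CPM at week 2 and 6.69, 8.94 and 7.52 CPM at week 4 (log2 fold change 1.11 with an SE of 0.24, adjusted p = 0.00465). Knotted-1-like 11 (BdiBd21-3.1G0409900), the member with the most counts, stood at 199, 207 and 219 CPM at week 2 and 239, 315 and 287 CPM at week 4 (log2 fold change 0.43 with an SE of 0.15, adjusted p = 0.0471). All week 4 values of both genes exceeded those of week 2. The call of knotted-1-like 11 was lost without any one shoot library other than week 4 replicate 1, or without week 2 root replicate 2 or 3 or week 4 root replicate 2 (adjusted p = 0.0572 to 0.223). With upper-quartile scaling, the scaling without the 50 most counted genes, no low-count filter or a replicate block it did not pass either (adjusted p = 0.0529 to 0.0697).

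Auxin, the hormone that patterns the meristem and drives cell enlargement, had 41 of 135 genes called lower and 14 higher, with a median log2 fold change of -0.35. Auxin response factors, which bind the target genes, were called lower in 12 of 24, Aux/IAA repressors in 11 of 25, and PIN carriers, which move auxin out of cells, in 3 of 9. SAUR genes, small genes of which many respond early to auxin, form the most numerous family and were called lower in 6 and higher in 3 of 49, with sums of 169%, 127% and 99.1% of the week 2 mean in the week 4 replicates. The count of auxin genes called higher was 5 without week 2 shoot replicate 2, 7 without week 2 replicate 3 and 5 without week 4 replicate 2. GH3.4 (BdiBd21-3.2G0272600), an enzyme that ties auxin to amino acids, showed the largest fall, with 20.4, 11.7 and 12.3 CPM at week 2 and 0.604, 0 and 0 CPM at week 4 (log2 fold change -6.04 with an SE of 0.73, adjusted p = 3.82e-04). YUCCA3 (BdiBd21-3.1G0007100), of the family of the last step of auxin synthesis, showed the largest rise, with 2.41, 3.44 and 3.29 CPM at week 2 and 10.7, 13.8 and 8.42 CPM at week 4 (log2 fold change 1.84 with an SE of 0.23, adjusted p = 3.45e-04). Week 4 values of the conjugating enzyme were at or near 0, and those of the synthesis enzyme all lay above week 2. IAA17 (BdiBd21-3.2G0401300), the member with the most counts, stood at 483, 438 and 428 CPM at week 2 and 552, 689 and 564 CPM at week 4 (log2 fold change 0.42 with an SE of 0.12, adjusted p = 0.0167). The weeks did not overlap for IAA17, but its call was lost without shoot replicate 2 or 3 of week 2 or 2 of week 4 (adjusted p = 0.10 to 0.134).

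Genes that loosen and build the wall of enlarging cells fell in many members. Of 144 tested genes 65 were called lower and 5 higher, with a median log2 fold change of -0.92. In the fit of the shoot libraries alone fewer members were tested, and 42 of those 107 were called lower. Without week 4 replicate 1 the median was -1.03. Expansins, which loosen walls, were called lower in 21 of 50 genes, xyloglucan endotransglucosylases, which cut and rejoin wall chains, in 12 of 29, endoglucanases in 11 of 21 and cellulose synthase catalytic subunits in 4 of 11. An endoglucanase of type F (BdiBd21-3.5G0061600) showed the largest fall, with 14.5, 15.1 and 13.1 CPM at week 2 and 2.55, 0.626 and 0 CPM at week 4 (log2 fold change -3.70 with an SE of 0.82, adjusted p = 0.00657). Cellulose synthase-like protein H1 (BdiBd21-3.5G0125100) showed the largest rise, with 179, 213 and 263 CPM at week 2 and 498, 563 and 631 CPM at week 4 (log2 fold change 1.37 with an SE of 0.24, adjusted p = 0.00166). The endoglucanase was near 0 in week 4 replicates 2 and 3, and the synthase-like gene was above week 2 in all 3 week 4 libraries. The xyloglucan-modifying gene with the most counts (BdiBd21-3.3G0257500) read 626, 671 and 686 CPM at week 2 and 483, 684 and 564 CPM at week 4, with a log2 fold change of -0.20 that did not pass the test (SE 0.15, adjusted p = 0.323). Its weeks overlapped.

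The waxy outer layer and its lipid carriers fell in part. Of 152 cuticle and wax genes 54 were called lower and 13 higher (median log2 fold change -0.66). In the fit of the shoot libraries alone 33 of the 133 tested there were lower. The number of the list called lower was 34 without week 2 shoot replicate 1, 33 without week 2 replicate 2 and 34 without week 4 replicate 3. Ketoacyl-CoA synthases, which lengthen wax fatty acids, were called lower in 10 and higher in 4 of 26 genes. They summed to 92.8%, 108% and 88.7% of the week 2 mean in the week 4 replicates. GDSL esterases, the most numerous family, were called lower in 32 and higher in 8 of 90 genes. Lipid-transfer proteins were called lower in 5 and higher in 0 of 19. Of 120 genes of lignin formation, which stiffens finished walls, 26 were called lower and 14 higher (median log2 fold change -0.15), a share of 21.7% lower beside the 19.4% of all tested genes. Leaving out week 4 replicate 1 gave 31 lower and 12 higher, with a median of -0.28, and 9 were higher without week 2 replicate 2 or without week 4 replicate 3. Fasciclin-like arabinogalactan proteins of the cell surface were called lower in 12 of 18 genes. Vascular and stem markers, a list of laccase, xylem, fasciclin and xylan genes, had 24 of 59 called lower and 0 higher, with a median log2 fold change of -0.61, or -0.74 without week 4 replicate 1.

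Among the other large falls, a gene described as pumilio homolog 7 (BdiBd21-3.4G0096800), of a family of RNA-binding repressors, stood at 217, 183 and 118 CPM at week 2 and 5.02, 4.10 and 6.09 CPM at week 4 (log2 fold change -5.09 with an SE of 0.39, adjusted p = 7.78e-05). All week 4 values lay far below those of week 2, replicate 1 included, and the gene lies on chromosome 4, 5928817 to 5931649 in the deposited table. A 36.4 kDa proline-rich protein (BdiBd21-3.1G0405900) stood at 64.9, 70.0 and 53.2 CPM at week 2 and 11.9, 0.398 and 0 CPM at week 4 (log2 fold change -3.89 with an SE of 1.04, adjusted p = 0.0169). A leucine-rich repeat receptor-like kinase (BdiBd21-3.4G0621500) stood at 41.1, 44.7 and 42.6 CPM at week 2 and 8.87, 0.0569 and 0.0530 CPM at week 4 (log2 fold change -3.79 with an SE of 1.04, adjusted p = 0.0190). Both of these followed the division genes in keeping part of their level in week 4 replicate 1 alone, and both lost their call in the fit of the shoot libraries alone (adjusted p = 0.114 and 0.117). The copper carrier ATX1 (BdiBd21-3.3G0594700) stood at 6.53, 349.8 and 85.2 CPM at week 2 and 4.55, 1.37 and 3.65 CPM at week 4 (log2 fold change -5.51 with an SE of 1.63, adjusted p = 0.0263). Week 2 replicate 1 was near the week 4 values, and the call rested on the other week 2 libraries. It was lost without week 2 shoot replicate 2 or without any one of the week 4 shoot replicates (adjusted p = 0.0710 to 0.0865). It was also lost with limma-voom, the fit of the shoot libraries alone or a replicate block (adjusted p = 0.0593 to 0.253).

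The genes of the light reactions were mostly not called. Of 70 photosystem and antenna genes 2 were called higher and 2 lower, with a median log2 fold change of 0.02. They summed to 130261, 129966 and 110078 CPM at week 2 and to 111644, 149006 and 124205 CPM at week 4, and the weeks overlapped. Chlorophyll a-b binding protein 1 (BdiBd21-3.4G0519700), of the main light-harvesting antenna, stood at 12841, 12483 and 10404 CPM at week 2 and 10777, 13472 and 10860.0 CPM at week 4, with a log2 fold change of -0.03 that did not pass the test (SE 0.24, adjusted p = 0.956). The thylakoid lumenal 17.9 kDa protein (BdiBd21-3.1G0352900) had the largest rise among called members, with 63.6, 66.5 and 62.3 CPM at week 2 and 78.9, 120.4 and 97.3 CPM at week 4 (log2 fold change 0.62 with an SE of 0.21, adjusted p = 0.0386). PsbP domain-containing protein 2 (BdiBd21-3.5G0130200) had the largest fall, with 11.9, 14 and 12.9 CPM at week 2 and 6.92, 10.5 and 6.88 CPM at week 4 (log2 fold change -0.67 with an SE of 0.19, adjusted p = 0.0191). Neither of the called genes overlapped between the weeks. The first call was lost without any one shoot library other than week 4 replicate 1, or without week 2 root replicate 2 (adjusted p = 0.0550 to 0.206). The call went too with the scaling without the 50 most counted genes or a replicate block (adjusted p = 0.0501 to 0.0566). The second call was lost without shoot replicate 2 of week 2 or 1 or 3 of week 4 (adjusted p = 0.0513 to 0.0627). Of 31 genes of carbon fixation and photorespiration 4 were called higher and 3 lower, with a median log2 fold change of 0.10, and a balance that turned without any one of the week 2 replicates or without week 4 replicate 2 (over the libraries left out 1 to 3 higher and 3 to 4 lower). The photorespiratory oxidase GLO3 (BdiBd21-3.5G0291100) had the largest fall, with 10.3, 4.55 and 7.97 CPM at week 2 and 3.3, 1.94 and 4.24 CPM at week 4 (log2 fold change -1.26 with an SE of 0.30, adjusted p = 0.00836). Its weeks did not overlap, although week 2 replicate 2 (4.55 CPM) was close above week 4 replicate 3.

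The 10 genes with the most counts in shoots are all of the chloroplast, and 1 of them was called. The 3 small chains of Rubisco, the enzyme that fixes carbon dioxide, did not pass the test. Rubisco small chain BdiBd21-3.4G0116800 had 12745, 13201 and 9844 CPM at week 2 and 10229.6, 13130.4 and 11095 CPM at week 4 (adjusted p = 0.885). The small chain BdiBd21-3.3G0340500 had 11284, 10293 and 8104 CPM at week 2 and 7286, 9184 and 8859 CPM at week 4 (adjusted p = 0.593). The small chain BdiBd21-3.4G0120800 had 8891, 8682 and 7430.4 CPM at week 2 and 7893, 9413 and 9129 CPM at week 4 (adjusted p = 0.849). All 3 overlapped between the weeks, and their near-identical copies may share reads. The antenna protein 3C (BdiBd21-3.2G0213600) had 9250.1, 8833 and 7204 CPM at week 2 and 7873, 11032 and 8485 CPM at week 4, and oxygen-evolving enhancer protein 1 (BdiBd21-3.1G0753800), a part of the water-splitting complex, had 7070.1, 7575 and 6232 CPM at week 2 and 5682, 7464 and 6465 CPM at week 4. Carbonic anhydrase (BdiBd21-3.2G0571000) had 8692, 7381 and 6331 CPM at week 2 and 9191, 11492 and 9753 CPM at week 4, and chloroplast aldolase (BdiBd21-3.4G0343200) had 6346, 7093 and 6075 CPM at week 2 and 6479.6, 8891 and 8919 CPM at week 4. The adjusted p of these 4 genes ran from 0.319 to 0.833. Rubisco activase (BdiBd21-3.4G0125600), which removes inhibitors from Rubisco, had 6811, 8303 and 8083 CPM at week 2 and 10080.4, 12879 and 12936 CPM at week 4 (log2 fold change 0.63, adjusted p = 0.215). All week 4 values were above those of week 2, and the gene passed the test in the fit of the shoot libraries alone and without week 2 root replicate 1 (adjusted p = 0.0203 and 0.0264). The 1 called gene (BdiBd21-3.1G0337900), thiamine thiazole synthase 2 of vitamin B1 formation, stood at 11418, 11346 and 8488 CPM at week 2 and 5565, 7327 and 6330.1 CPM at week 4 (log2 fold change -0.70 with an SE of 0.21, adjusted p = 0.0227). Its weeks did not overlap. The call was lost without shoot replicate 1 or 2 of week 2 or 1 or 3 of week 4 (adjusted p = 0.0539 to 0.0689). A further Rubisco small chain (BdiBd21-3.5G0058000), of far fewer counts, belonged to the 10 largest rises, with 1.21, 3.35 and 12.7 CPM at week 2 and 117, 72.3 and 18.5 CPM at week 4 (log2 fold change 3.60 with an SE of 0.99, adjusted p = 0.0254). Week 4 replicate 3 was close to week 2 replicate 3, and the call was lost without shoot replicate 1 or 2 of either week or root replicate 1 of week 4 (adjusted p = 0.0523 to 0.0869). With no low-count filter, DESeq2, the fit of the shoot libraries alone or a replicate block it did not pass either (adjusted p = 0.0525 to 0.0735).

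Chlorophyll synthesis fell in part while breakdown rose in part. Of 27 synthesis genes 13 were called lower and 0 higher, with a median log2 fold change of -0.28. The falls included enzymes of its early steps. Glutamate-1-semialdehyde aminomutase (BdiBd21-3.3G0545200), chosen after values had been seen, stood at 385, 408 and 388 CPM at week 2 and 234, 234 and 219.7 CPM at week 4 (log2 fold change -0.78 with an SE of 0.08, adjusted p = 1.98e-04). Delta-aminolevulinic acid dehydratase (BdiBd21-3.3G0041700) had the largest fall, with 25.1, 29.1 and 24.2 CPM at week 2 and 12.4, 12.1 and 13.2 CPM at week 4 (log2 fold change -1.06 with an SE of 0.20, adjusted p = 0.00223). Both genes had every week 4 value below every week 2 value. The magnesium chelatase subunit ChlH (BdiBd21-3.1G0251200), with the most counts of the list, stood at 1789.7, 1966 and 1419 CPM at week 2 and 1598, 1944 and 1546 CPM at week 4, with a log2 fold change of -0.02 that did not pass the test (SE 0.15, adjusted p = 0.925). Of 11 breakdown genes 4 were called higher and 0 lower (median log2 fold change 0.11). The number higher was 1 without week 2 shoot replicate 1, and 2 without week 2 replicate 2 or without week 4 replicate 3. Without week 4 replicate 1, 3 of the 11 were called higher and 1 lower. Pheophorbide a oxygenase (BdiBd21-3.1G1005300), which opens the chlorophyll ring in senescing leaves, had the largest rise, with 47.4, 67.3 and 57.2 CPM at week 2 and 95.6, 92.3 and 115 CPM at week 4 (log2 fold change 0.82 with an SE of 0.16, adjusted p = 0.00271). The chlorophyll b reductase NYC1 (BdiBd21-3.2G0098500) stood at 138, 186 and 193 CPM at week 2 and 144, 210.4 and 204 CPM at week 4, with a log2 fold change of 0.11 that did not pass the test (SE 0.20, adjusted p = 0.713). The weeks overlapped for ChlH and NYC1 and not for the oxygenase.

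Ribosomal protein genes fell in most members, in chloroplast and cytosol alike. Of 39 genes of the chloroplast ribosome, which makes the proteins encoded in the chloroplast genome, 37 were called lower and 0 higher, with a median log2 fold change of -0.66. Their sum was 11146, 11265 and 11093 CPM at week 2 and 7012, 7487 and 6901 CPM at week 4, that is 62.8%, 67.0% and 61.8% of the week 2 mean in the 3 week 4 replicates. Protein L11 of the chloroplast ribosome (BdiBd21-3.1G1027000) had the largest fall, with 238, 255 and 258 CPM at week 2 and 116, 121 and 121 CPM at week 4 (log2 fold change -1.07 with an SE of 0.13, adjusted p = 3.22e-04). Protein L12-2 (BdiBd21-3.2G0583400), with the most counts, stood at 966, 959 and 949 CPM at week 2 and 606, 693 and 625 CPM at week 4 (log2 fold change -0.58 with an SE of 0.13, adjusted p = 0.00491). The values within each week were close together, and replicate 1 of week 4 did not stand apart in either gene. Of 190 genes of the cytosolic ribosome 149 were called lower and 5 higher, with a median log2 fold change of -0.62. They summed to 31587, 36094 and 38509 CPM at week 2 and to 25748, 19313 and 24094 CPM at week 4, and without week 4 replicate 1 the median was -0.75. Protein L10a-1 (BdiBd21-3.2G0711200) had the largest fall of this list, with 140.0, 156 and 165 CPM at week 2 and 71.3, 45.5 and 69.6 CPM at week 4 (log2 fold change -1.31 with an SE of 0.16, adjusted p = 3.41e-04). Protein L10-2 (BdiBd21-3.2G0429100), with the most counts, stood at 547, 587 and 672 CPM at week 2 and 573, 452 and 614 CPM at week 4, with a log2 fold change of -0.14 that did not pass the test (SE 0.14, adjusted p = 0.461). The weeks did not overlap for L10a-1 and overlapped for L10-2. The acidic stalk protein P2B (BdiBd21-3.1G0707300) rose against the rest of the list, with 1.96, 1.02 and 1.56 CPM at week 2 and 37.9, 24.3 and 46.8 CPM at week 4 (log2 fold change 4.58 with an SE of 0.46, adjusted p = 1.59e-04). A second stalk gene (BdiBd21-3.3G0270600), P0, rose likewise, with 1.26, 4.74 and 7.65 CPM at week 2 and 75.1, 44.0 and 102 CPM at week 4 (log2 fold change 4.02 with an SE of 0.69, adjusted p = 0.00208). All week 4 values of both lay above week 2, and replicate 2 was the lowest of week 4. Ribosomal protein genes have near-identical copies, so that counts of single copies are uncertain.

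**Figure D4:**
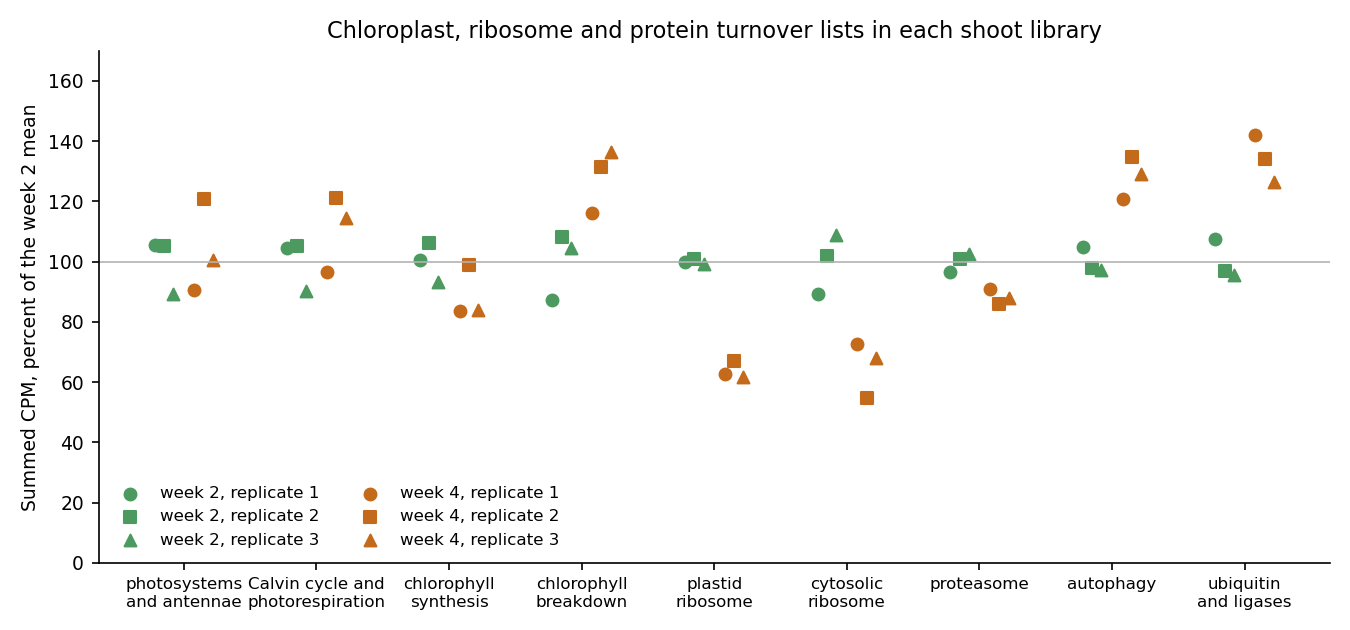
Summed CPM of 9 gene lists in each shoot library as a percent of the list's week 2 mean (vertical axis), 1 point per library. The chloroplast ribosome list lies at 62.8%, 67.0% and 61.8% in the week 4 replicates, and the photosystem and antenna list at 90.4%, 121% and 101%.

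Genes of protein breakdown moved in both directions. Of 52 proteasome genes, the complex that degrades tagged proteins, 22 were called lower and 0 higher (median log2 fold change -0.22). Of 21 autophagy genes, which deliver cell contents to the vacuole, 10 were called higher and 0 lower (median 0.33). That count was 3 without week 2 shoot replicate 2 or 3 or week 4 replicate 2, and 5 without week 4 replicate 3. Proteasome subunit beta type-3 (BdiBd21-3.1G0406100) had the largest fall, with 46.9, 46.2 and 47.5 CPM at week 2 and 28.5, 21.8 and 23.4 CPM at week 4 (log2 fold change -0.93 with an SE of 0.12, adjusted p = 3.90e-04). The 26S proteasome regulatory subunit with the most counts (BdiBd21-3.3G0046700) stood at 244, 245 and 248 CPM at week 2 and 227, 225 and 239 CPM at week 4, with a log2 fold change of -0.09 that did not pass the test (SE 0.08, adjusted p = 0.365). Autophagy-related protein 18h (BdiBd21-3.2G0666200) had the largest rise of its list, with 69.5, 64.1 and 58.2 CPM at week 2 and 98.5, 107 and 103 CPM at week 4 (log2 fold change 0.68 with an SE of 0.09, adjusted p = 4.07e-04). The weeks overlapped for none of these 3 genes. Autophagy-related protein 8A (BdiBd21-3.1G0345400), which coats the autophagosome, stood at 114, 116 and 123 CPM at week 2 and 127, 146 and 143 CPM at week 4, with a log2 fold change of 0.24 that did not pass the test (SE 0.10, adjusted p = 0.0768). Its week 4 values were all above those of week 2. Of 362 genes of ubiquitin itself and of the ligases that attach it to proteins 110 were called higher and 28 lower (median 0.29), among them 17 of 56 U-box and 86 of 292 RING or other E3 ligases called higher. Without week 2 shoot replicate 2 or without week 4 replicate 2 the count of the list was 65 higher.

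A polyubiquitin 4 gene (BdiBd21-3.2G0164500) belonged to the 10 largest rises, with 13.6, 18.5 and 19.3 CPM at week 2 and 162, 143 and 274 CPM at week 4 (log2 fold change 3.49 with an SE of 0.43, adjusted p = 5.06e-04). Another gene of the same name (BdiBd21-3.2G0164400) had the largest rise of the ubiquitin list, with 0.302, 1.53 and 4.04 CPM at week 2 and 29.2, 13.4 and 45.0 CPM at week 4 (log2 fold change 3.91 with an SE of 0.75, adjusted p = 0.00345). The polyubiquitin 4 gene with the most counts (BdiBd21-3.1G0441800) stood at 1022, 956 and 783 CPM at week 2 and 1110.1, 978 and 794 CPM at week 4, with a log2 fold change of 0.06 that did not pass the test (SE 0.15, adjusted p = 0.778). Week 4 exceeded week 2 in every library of the first 2 genes, and overlapped with it in the abundant one. For BdiBd21-3.2G0164500 the lack of overlap was a condition of its choice. Polyubiquitin genes share repeats, so reads may be split between them. The E3 ligase RNF181 (BdiBd21-3.2G0357400) had the largest fall of the list, with 21.8, 21.8 and 15.1 CPM at week 2 and 4.78, 1.48 and 1.06 CPM at week 4 (log2 fold change -2.98 with an SE of 0.43, adjusted p = 8.03e-04). Its week 4 values all lay far below those of week 2.

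Transcription factors tied to stress and senescence rose more often than they fell. Of 77 WRKY genes 25 were called higher and 10 lower, with a median log2 fold change of 0.42 beside 0 over all tested genes. Of 72 NAC genes 15 were called higher and 8 lower (median 0.30). Without week 4 replicate 1 the NAC median was 0.10, with 13 higher and 7 lower, and the WRKY median 0.28, with 18 and 10. The NAC genes called lower were 4 without replicate 2 of either week and 3 without week 4 replicate 3. The WRKY genes summed to 2118, 1284 and 1267 CPM at week 2 and to 4778, 3129 and 2921 CPM at week 4. Every week 4 sum exceeded every week 2 sum, and replicate 1 was the highest of each week. WRKY24 (BdiBd21-3.4G0022900), the member with the most counts, stood at 419, 184 and 192 CPM at week 2 and 918, 736 and 596 CPM at week 4 (log2 fold change 1.5 with an SE of 0.33, adjusted p = 0.00609). A second gene matched to WRKY24 (BdiBd21-3.2G0294300) had the largest rise, with 1.16, 1.53 and 2.32 CPM at week 2 and 15.9, 6.09 and 7.94 CPM at week 4 (log2 fold change 2.58 with an SE of 0.59, adjusted p = 0.00697). Both had all week 4 values above those of week 2, and replicate 1 the highest of week 4. The NAC gene with the largest rise (BdiBd21-3.2G0681500), NAC 68, stood at 33.1, 21.7 and 26.1 CPM at week 2 and 130.4, 91.0 and 85.4 CPM at week 4 (log2 fold change 1.92 with an SE of 0.23, adjusted p = 3.49e-04). NAC 48 (BdiBd21-3.2G0729700), chosen after values had been seen, stood at 274, 239.5 and 261 CPM at week 2 and 481, 551 and 517 CPM at week 4 (log2 fold change 1.0 with an SE of 0.12, adjusted p = 3.17e-04). NAC 43 (BdiBd21-3.3G0181600) had the largest fall, with 14.9, 15.5 and 12.0 CPM at week 2 and 7.66, 7.68 and 3.97 CPM at week 4 (log2 fold change -1.13 with an SE of 0.24, adjusted p = 0.00438). None of these 3 overlapped between the weeks. NAC 67 (BdiBd21-3.1G0054700), with the most counts, stood at 487, 189.8 and 183 CPM at week 2 and 821, 608 and 414 CPM at week 4, with a log2 fold change of 1.10 that did not pass the test (SE 0.74, adjusted p = 0.280). The replicates of each week differed widely and overlapped for it, with replicate 1 the highest of each week.

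Wall-associated, cysteine-rich and lectin receptor kinases of the cell surface were called higher more often than lower. Leucine-rich repeat receptor kinases, counted apart, had 33 called higher and 46 lower of 146 (median log2 fold change 0.01). Of 308 wall-associated, cysteine-rich and lectin receptor kinases 84 were called higher and 17 lower, with a median log2 fold change of 0.47. In the fit of the shoot libraries alone 9 of the 274 tested there were called lower. G-type lectin kinases were called higher in 26 of 83 genes, wall-associated kinases in 20 of 79, L-type lectin kinases in 19 of 78 and cysteine-rich kinases in 18 of 63. A G-type lectin kinase (BdiBd21-3.2G0095300) had the largest rise, with 0.804, 0.558 and 3.39 CPM at week 2 and 11.9, 7.40 and 10.8 CPM at week 4 (log2 fold change 2.67 with an SE of 0.61, adjusted p = 0.00657). An L-type lectin kinase (BdiBd21-3.1G0315700) had the largest fall, with 12.4, 9.80 and 8.46 CPM at week 2 and 1.77, 0.341 and 0 CPM at week 4 (log2 fold change -3.80 with an SE of 0.88, adjusted p = 0.00772). A cysteine-rich receptor-like kinase (BdiBd21-3.4G0342200), with the most counts of the list, stood at 407, 390.2 and 430.3 CPM at week 2 and 563, 742 and 764 CPM at week 4 (log2 fold change 0.75 with an SE of 0.25, adjusted p = 0.0395). None of these 3 overlapped between the weeks. The call of the cysteine-rich kinase was lost without any one shoot library other than week 4 replicate 1, or without week 2 or week 4 root replicate 2 (adjusted p = 0.0528 to 0.134). It was also lost with the scaling without the 50 most counted genes or a replicate block (adjusted p = 0.0502 to 0.0567).

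Jasmonate genes were called higher in 14 and lower in 4 of 46 genes, with a median log2 fold change of 0.34. Without week 4 replicate 1 these were 10 and 5, with a median of 0.22, and the number higher was 9, 7 and 7 without week 2 replicates 1, 2 and 3 and 5 without week 4 replicate 3. TIFY proteins, which include the JAZ repressors of jasmonate responses, were called higher in 7 of 13 genes and lower in 0, with a median of 1.31. TIFY 10b (BdiBd21-3.3G0148400), chosen after values had been seen, stood at 93.6, 95.6 and 102 CPM at week 2 and 222, 166 and 212 CPM at week 4 (log2 fold change 1.04 with an SE of 0.12, adjusted p = 2.59e-04). 12-oxophytodienoate reductase 5 (BdiBd21-3.2G0450200), of the family that reduces the jasmonate precursor, had the largest rise, with 6.63, 3.62 and 15.8 CPM at week 2 and 47.2, 27.9 and 68.6 CPM at week 4 (log2 fold change 2.47 with an SE of 0.56, adjusted p = 0.00750). Week 4 lay above week 2 in every library of both genes. Lipoxygenases, which start jasmonate formation by oxidizing fatty acids, were called higher in 3 and lower in 4 of 11 genes. A lipoxygenase 2.3 gene (BdiBd21-3.3G0092600) had the largest fall, with 410.5, 568 and 552 CPM at week 2 and 199.7, 289 and 186 CPM at week 4 (log2 fold change -1.18 with an SE of 0.22, adjusted p = 0.00216). The other lipoxygenase 2.3 gene (BdiBd21-3.3G0092400), with the most counts, stood at 429, 604 and 428 CPM at week 2 and 301, 359.7 and 297 CPM at week 4, with a log2 fold change of -0.61 that did not pass the test (SE 0.35, adjusted p = 0.210). Lipoxygenase 8 (BdiBd21-3.3G0527200) stood at 8.80, 28.5 and 33 CPM at week 2 and 143, 57.0 and 69.4 CPM at week 4 (log2 fold change 1.94 with an SE of 0.59, adjusted p = 0.0307). The last of these rose without overlap of the weeks, but its call was lost without shoot replicate 1 or 2 of week 2 or 1 or 3 of week 4 (adjusted p = 0.0522 to 0.104). The call went too with no low-count filter, the fit of the shoot libraries alone or a replicate block (adjusted p = 0.0522 to 0.0772). Both lipoxygenase 2.3 genes had all week 4 values below those of week 2, and the more abundant one passed the test with limma-voom, in the fit of the shoot libraries alone and without week 4 root replicate 1 (adjusted p = 0.0134 to 0.0327). CYP94C1 (BdiBd21-3.4G0590800), an enzyme that oxidizes the active jasmonate conjugate in Arabidopsis, stood at 11.9, 3.72 and 2.75 CPM at week 2 and 41.3, 38.1 and 47.7 CPM at week 4 (log2 fold change 2.79 with an SE of 0.67, adjusted p = 0.0109). All its week 4 values were above week 2, and its call was lost without week 2 shoot replicate 2 (adjusted p = 0.0501).

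Enzymes that conjugate small molecules were called higher more often than lower. Of 229 glutathione and UDP-sugar transferases 72 were called higher and 23 lower, with a median log2 fold change of 0.24. Glutathione transferases were called higher in 23 and lower in 12 of 66 genes, and UDP-glycosyltransferases higher in 49 and lower in 11 of 163. A GSTU6 gene (BdiBd21-3.3G0413700) had the largest rise, with 0.653, 0.232 and 1.62 CPM at week 2 and 24.8, 7.68 and 17.6 CPM at week 4 (log2 fold change 4.34 with an SE of 0.68, adjusted p = 0.00116). A second GSTU6 gene (BdiBd21-3.2G0538300) stood at 12.5, 9.11 and 10.4 CPM at week 2 and 91.7, 62.8 and 96.2 CPM at week 4 (log2 fold change 2.97 with an SE of 0.19, adjusted p = 3.39e-05). Glutathione transferase F8 (BdiBd21-3.1G1015200) had the largest fall, with 25.9, 19.1 and 19 CPM at week 2 and 7.20, 1.42 and 0.212 CPM at week 4 (log2 fold change -2.83 with an SE of 0.74, adjusted p = 0.0153). None of these 3 overlapped between the weeks. The call of F8 was lost in the fit of the shoot libraries alone and without week 4 shoot replicate 2 (adjusted p = 0.0994 and 0.0519, against 7.87e-05 to 0.128 over all alternatives). The glutathione transferase with the most counts (BdiBd21-3.3G0565700) stood at 433, 397 and 351 CPM at week 2 and 404, 461 and 436 CPM at week 4, with a log2 fold change of 0.14 that did not pass the test (SE 0.15, adjusted p = 0.516). UDP-glycosyltransferase 74E2 (BdiBd21-3.5G0045000), which acts on an auxin in Arabidopsis, belonged to the 10 largest rises, with 25.7, 1.25 and 2.48 CPM at week 2 and 60.02, 47.7 and 139.7 CPM at week 4 (log2 fold change 3.07 with an SE of 0.94, adjusted p = 0.0306). Week 2 replicate 1 stood well above the other week 2 libraries, and the call was lost without shoot replicate 2 or 3 of week 2 or 3 of week 4 (adjusted p = 0.0693 to 0.115). With no low-count filter or the fit of the shoot libraries alone it did not pass either (adjusted p = 0.0563 to 0.137).

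ABC transporters, which pump hormones and metabolites across membranes, were called higher in 30 and lower in 24 of 126 genes (median log2 fold change 0.08). This balance turned to 24 higher and 25 lower without week 4 replicate 1, to 15 and 19 without week 2 replicate 2, to 22 and 25 without week 2 replicate 3, to 18 and 21 without week 4 replicate 3, and to 25 and 26 with the scaling without the 50 most counted genes. Members of the B family stood at both ends. ABCB11 (BdiBd21-3.2G0605033) had the largest rise, with 13.2, 8.78 and 9.16 CPM at week 2 and 86.4, 52.2 and 172 CPM at week 4 (log2 fold change 3.32 with an SE of 0.39, adjusted p = 3.67e-04). ABCB4 (BdiBd21-3.2G0605400) stood at 3.77, 6.27 and 3.39 CPM at week 2 and 36.8, 30.2 and 53.8 CPM at week 4 (log2 fold change 3.16 with an SE of 0.28, adjusted p = 1.16e-04). ABCB19 (BdiBd21-3.5G0155100) had the largest fall, with 40.1, 34.5 and 31.1 CPM at week 2 and 8.73, 1.71 and 0.794 CPM at week 4 (log2 fold change -3.2 with an SE of 0.64, adjusted p = 0.00438). Both rising genes lie on chromosome 2 in the deposited table, at 47179365 to 47187893 and 47208194 to 47216218. In both, all week 4 libraries exceeded week 2, and replicate 3 was the highest. ABC transporter C family member 2 (BdiBd21-3.5G0289300), with the most counts, stood at 425, 379 and 429.9 CPM at week 2 and 519, 569 and 591 CPM at week 4 (log2 fold change 0.45 with an SE of 0.11, adjusted p = 0.0104). Its weeks did not overlap, and its call was lost without shoot replicate 2 of week 2 or 3 of week 4 (adjusted p = 0.0532 to 0.0691).

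The remaining genes among the 10 largest rises had low levels at week 2 and differed several-fold among the week 4 libraries. Valine-tRNA ligase (BdiBd21-3.3G0398700), which charges a transfer RNA, stood at 2.11, 0.883 and 2.42 CPM at week 2 and 62.1, 17.4 and 85.4 CPM at week 4 (log2 fold change 4.94 with an SE of 0.57, adjusted p = 3.67e-04). Aldo-keto reductase 2 (BdiBd21-3.3G0639200) stood at 0.653, 0.929 and 8.68 CPM at week 2 and 55.6, 21.3 and 105 CPM at week 4 (log2 fold change 4.17 with an SE of 0.91, adjusted p = 0.00676). The transcription factor bHLH35 (BdiBd21-3.5G0066700) stood at 4.98, 4.55 and 1.83 CPM at week 2 and 29.96, 33.1 and 120.2 CPM at week 4 (log2 fold change 4.00 with an SE of 0.98, adjusted p = 0.0117). Replicate 3 was the highest of week 4 in each, and the lack of overlap between the weeks was a condition of the choice. The transcription factor bHLH148 (BdiBd21-3.1G0125100) stood at 3.97, 5.06 and 3.56 CPM at week 2 and 29.7, 28.5 and 70.6 CPM at week 4 (log2 fold change 3.35 with an SE of 0.62, adjusted p = 0.00305). The same held for it. The call of the aldo-keto reductase was lost in the fit of the shoot libraries alone (adjusted p = 0.0626). For the valine-tRNA ligase, the aldo-keto reductase and the stalk protein P0, replicate 2 was the lowest of week 4.

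Genes of light sensing and the circadian clock rose more often than they fell. Of 55 tested genes 25 were called higher and 8 lower, with a median log2 fold change of 0.38, and 16 were higher without week 2 shoot replicate 2. The hour of harvest is not in the labels, and clock genes vary over the day, so that a different hour and a different age cannot be told apart. LHY (BdiBd21-3.3G0221800), a morning clock factor, stood at 30.8, 42.9 and 57.3 CPM at week 2 and 113, 135 and 225 CPM at week 4 (log2 fold change 1.85 with an SE of 0.32, adjusted p = 0.00182). PRR1 (BdiBd21-3.3G0649000), of the pseudo-response regulator family of the clock, stood at 123, 117 and 96.1 CPM at week 2 and 49.8, 45.2 and 46.7 CPM at week 4 (log2 fold change -1.25 with an SE of 0.10, adjusted p = 6.08e-05). PRR73 (BdiBd21-3.1G0887100), of the same family, stood at 152, 134 and 145 CPM at week 2 and 255, 269 and 273 CPM at week 4 (log2 fold change 0.89 with an SE of 0.09, adjusted p = 1.95e-04). LHY and PRR73 were above, and PRR1 below, the week 2 values in every week 4 library. These genes, REVEILLE 6 and cryptochrome 1 were chosen after values had been seen. REVEILLE 6 (BdiBd21-3.3G0685600), a relative of LHY, had 68.3, 71.4 and 72.1 CPM at week 2 and 144, 172 and 181 CPM at week 4 (log2 fold change 1.23 with an SE of 0.18, adjusted p = 6.71e-04). The blue-light receptor cryptochrome 1 (BdiBd21-3.3G0619100) had 135, 128 and 123 CPM at week 2 and 220.5, 226 and 206 CPM at week 4 (log2 fold change 0.76 with an SE of 0.12, adjusted p = 0.00102). Both were higher in every week 4 library. B-box genes were called higher in 6 of 10, cryptochromes in 4 of 5, and CONSTANS-like genes were called higher in 4 and lower in 4 of 14.

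CONSTANS-LIKE 5 (BdiBd21-3.3G0264400), of the family of day-length factors, had the largest rise of the light and clock list, with 4.32, 2.37 and 3.34 CPM at week 2 and 32.3, 16.1 and 10.7 CPM at week 4 (log2 fold change 2.56 with an SE of 0.51, adjusted p = 0.00412). A CONSTANS-LIKE 16 gene (BdiBd21-3.1G0573000) had the largest fall, with 213, 259 and 157 CPM at week 2 and 23.5, 60.3 and 53.5 CPM at week 4 (log2 fold change -2.20 with an SE of 0.41, adjusted p = 0.00318). The other CONSTANS-LIKE 16 gene (BdiBd21-3.1G0151100), with the most counts, stood at 539, 693 and 713 CPM at week 2 and 863, 1422 and 1424 CPM at week 4 (log2 fold change 0.93 with an SE of 0.22, adjusted p = 0.00775). The weeks overlapped for none of them, so that genes of 1 name moved apart. Of 43 MADS-box and flowering genes 8 were called higher and 1 lower (median log2 fold change 0.08). These shares of 18.6% higher and 2.33% lower stand beside 14.5% and 19.4% of all tested genes. The number higher was 4 without week 2 shoot replicate 2 and 5 without week 2 replicate 3 or week 4 replicate 2. A gene matched to MADS-box factor 56 (BdiBd21-3.1G1026600), which is a flowering regulator in rice, had the largest rise, with 2.26, 1.86 and 2.69 CPM at week 2 and 18.4, 11.3 and 9.59 CPM at week 4 (log2 fold change 2.53 with an SE of 0.28, adjusted p = 2.44e-04). A second gene of that match (BdiBd21-3.3G0418600), chosen after values had been seen, stood at 7.04, 11.1 and 9.59 CPM at week 2 and 44.5, 40.3 and 47.5 CPM at week 4 (log2 fold change 2.25 with an SE of 0.22, adjusted p = 1.32e-04). A gene matched to FLOWERING LOCUS T (BdiBd21-3.4G0487550), of the family of the mobile flowering signal, was chosen likewise. It stood at 10.1, 9.20 and 11.2 CPM at week 2 and 18.3, 21.7 and 17.4 CPM at week 4 (log2 fold change 0.91 with an SE of 0.20, adjusted p = 0.00557). All week 4 values of the 3 genes were above those of week 2. MADS-box factor 51 (BdiBd21-3.2G0757500), with the most counts of the list, stood at 43.0, 51.9 and 45.7 CPM at week 2 and 54.3, 63.3 and 70.4 CPM at week 4 (log2 fold change 0.42 with an SE of 0.15, adjusted p = 0.0487). Its call was lost without any one shoot library other than week 4 replicate 1, and without 4 of the root libraries, which are week 2 replicates 1, 2 and 3 and week 4 replicate 2 (adjusted p = 0.0550 to 0.233). It was also lost with upper-quartile scaling, the scaling without the 50 most counted genes, no low-count filter or a replicate block (adjusted p = 0.0563 to 0.0767). Markers of pollen and flower tissue had 2 called higher and 3 lower of 14, and summed to 169.7, 166 and 161 CPM at week 2 and 145, 120.4 and 119.6 CPM at week 4.

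Members of the other groups are not named. Their counts stand beside shares over all tested genes of 14.5% called higher and 19.4% lower. Nitrogen genes, with 16.0% higher and 16.0% lower, and iron and zinc genes, with 15.2% and 21.7%, lay near those shares. So did proteases of the kinds active in senescence, with 13.6% higher and 19.7% lower. Proteases of the kinds active in senescence were called higher in 9 and lower in 13 of 66 genes (median 0.01). Nitrogen transport and recycling genes were called higher in 26 and lower in 26 of 162 genes (median 0.01). Sugar, starch and fructan genes were called higher in 21 and lower in 15 of 122 genes (median 0.10). Intracellular immune receptors of the NB-ARC type were called higher in 48 and lower in 37 of 230 genes (median 0.18). Defence proteins such as chitinases, germins and protease inhibitors were called higher in 11 and lower in 50 of 163 genes (median -0.38). Phosphate and sulfate genes were called higher in 22 and lower in 14 of 101 genes (median 0.04). Iron and zinc genes were called higher in 14 and lower in 20 of 92 genes (median -0.24). Genes of abscisic acid, the drought hormone, and of desiccation proteins were called higher in 18 and lower in 14 of 92 genes (median 0.01). Cytokinin and gibberellin genes were called higher in 6 and lower in 17 of 73 genes (median -0.04). Peroxidases of the secreted class were called higher in 4 and lower in 33 of 126 genes (median -0.45). Leucine-rich repeat receptor kinases were called higher in 33 and lower in 46 of 146 genes (median 0.01). Aquaporins, the water channels, were called higher in 2 and lower in 8 of 29 genes (median -0.29). Heat shock and chaperone genes were called higher in 37 and lower in 24 of 175 genes (median 0.13). Seed protein genes were called higher in 1 and lower in 0 of 15, and mesophyll markers higher in 2 and lower in 0 of 26. Without week 4 replicate 1 the seed protein genes had 1 called higher and 3 lower, with a median of -0.75 in place of -0.31. Of the mesophyll markers 0 were then called, with a median of 0.08 in place of -0.02. Of the 21 genes named for root structures 0 were called higher and 3 lower.

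Several of these counts depended on 1 library. Of 76 counts over the 38 lists, the numbers that changed by more than a factor of 1.5 were 10, 28 and 12 without week 2 replicates 1, 2 and 3 and 7, 19 and 16 without week 4 replicates 1, 2 and 3. Without week 4 replicate 1, abscisic acid genes had 14 higher and 17 lower with a median of -0.20, heat shock genes 22 higher and 33 lower, cytokinin and gibberellin genes 8 higher and 16 lower with a median of -0.18, and senescence proteases 6 higher and 14 lower with a median of -0.12. Medians without it were -0.52 for defence proteins, -0.59 for peroxidases, -0.35 for iron and zinc genes and -0.32 for the proteasome. The balance of abscisic acid genes also turned without week 2 replicate 3 (12 higher, 14 lower) and with the scaling without the 50 most counted genes (16 and 17). That of heat shock genes turned without week 2 replicates 1, 2 and 3 (20 and 23, 17 and 21, 20 and 22) and with that scaling (25 and 30), and fewer were higher without week 4 replicates 2 and 3 (18 and 20). Sugar genes turned to 11 higher and 13 lower, 13 and 21, and 12 and 19 without week 2 replicate 2, week 2 replicate 3 and week 4 replicate 2, NB-ARC genes to 26 and 34 without week 2 replicate 2, and iron and zinc genes to 15 and 14 without week 4 replicate 3. In the fit of the shoot libraries alone fewer members were tested, and 16 of 71 peroxidases and 32 of 128 defence proteins were called lower. So were 8 of 64 cytokinin and gibberellin genes and 7 of 77 abscisic acid genes. Leucine-rich repeat kinases had 37 higher and 32 lower of 136. With 1 shoot library left out, the lower counts ran from 39 to 41 for core histones, 31 to 33 for replication, 83 to 96 for mitosis, 36 to 38 for the chloroplast ribosome and 129 to 157 for the cytosolic ribosome.

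Some calls rest on very low levels. Among genes called lower, 105 had no count in any week 4 shoot library, with a median week 2 level of 0.516 CPM. Of these, 65 were highest in week 2 replicate 1, and 74 were at least 10-fold higher in week 2 roots than in week 2 shoots. Week 2 replicate 1 also had the highest sum of the root cap, root lectin and Casparian strip genes, and the part of root tissue in these calls was not tested. A further 72 genes called lower had at least 10 counts in week 4 replicate 1 and 0 in both other week 4 replicates. Among genes called higher, 13 had no count in any week 2 shoot library.

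The shoot's change differed from that of the root for 2254 genes (8.52%) in the test of the difference itself. The shoot change was the more positive for 517 (1.95%) and the more negative for 1737 (6.56%). The count changed by more than a factor of 1.5 without week 4 shoot replicate 1, to 3542, without week 2 shoot replicate 1 or 2, to 1434 and 1318, and without week 2 or week 4 root replicate 2, to 1422 and 1323. In roots alone 12.4% of genes were called higher and 6.35% lower. The chloroplast lists differed in many members. Over the 39 chloroplast ribosome genes the median log2 fold change was -0.66 in shoots and 0.57 in roots, and the difference was called for 35 of them, all with the more negative shoot change. The photosystem and antenna list had medians of 0.02 in shoots and 1.29 in roots, with 45 of 70 differences called, and chlorophyll synthesis -0.28 and 0.54, with 19 of 27. The cytosolic ribosome list did not show this. Its medians were -0.62 in shoots and -0.69 in roots, with 1 difference called as more positive and 0 as more negative in shoots. The core histones had medians of -2.49 and -0.91, with 7 differences called as more negative in shoots, replication genes -1.0 and -0.51, with 7, and mitosis genes -1.22 and -0.47, with 15. Conjugating transferases had 25 of 229 differences called as more positive in shoots and 10 as more negative.

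**Figure D5:**
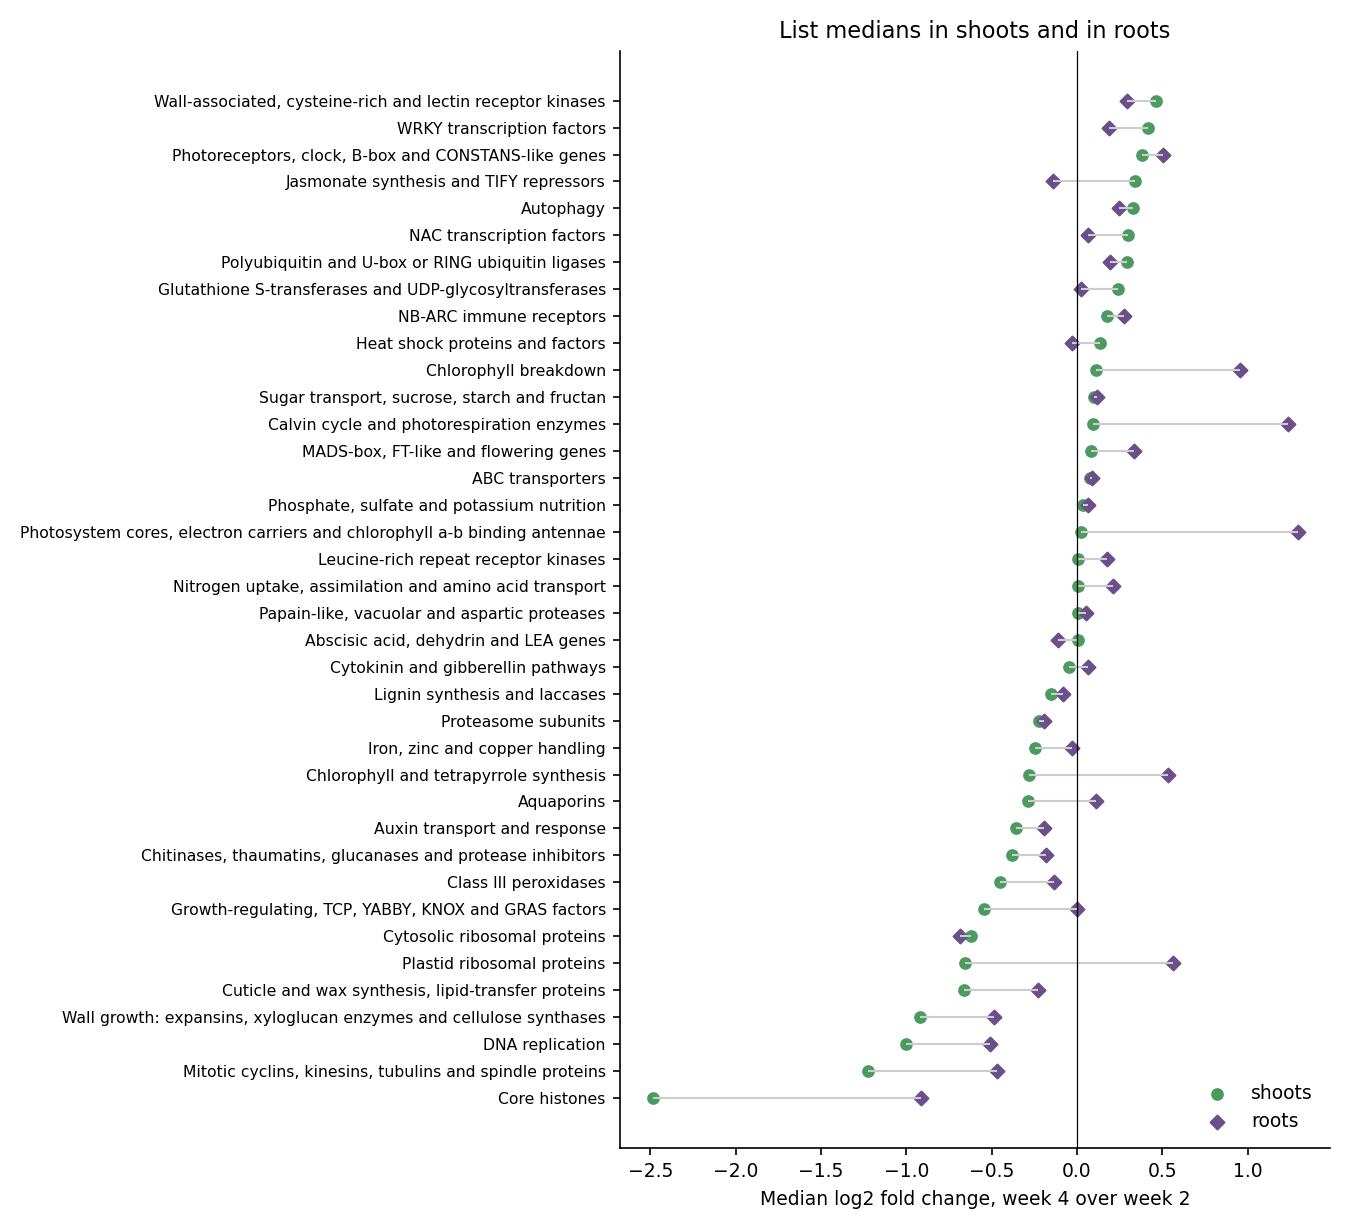
Median log2 fold change of week 4 over week 2 (horizontal axis) of each gene list (vertical axis), with 1 point for shoots and 1 for roots, joined by a line. The chloroplast ribosome list lies at -0.66 in shoots and 0.57 in roots, and the cytosolic ribosome list at -0.62 and -0.69.

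Among genes of at least 20 CPM over the 12 libraries, 3 had the most positive and 3 the most negative shoot change beside the root. GSTU6 (BdiBd21-3.2G0538300), described above, had 10.8 ± 1.18 and 5.34 ± 0.814 CPM in week 2 and week 4 roots (mean ± SD over 3 libraries; difference of log2 fold changes 3.98, SE 0.26, adjusted p = 1.34e-04). Lipoxygenase 8 had 6.97 ± 5.27 and 1.17 ± 0.182 CPM in the same roots (difference 4.51, SE 0.92, adjusted p = 0.0177). CYP94C1 had 38.0 ± 31.1 and 16.5 ± 7.09 CPM (difference 4.00, SE 0.92, adjusted p = 0.0278). All 3 rose in shoots and had root means that were lower at week 4. The 3 at the other end were root-abundant genes at a low level in shoots. A gene with a pollen Ole e I domain (BdiBd21-3.2G0248600) had 7.39, 2.42 and 4.2 CPM in week 2 shoots and no count in week 4 shoots, which is at least 90.2-fold lower taking 3 counts summed over the 3 libraries as the floor. A subtilisin-chymotrypsin inhibitor gene (BdiBd21-3.2G0444500) had 4.32, 1.07 and 1.29 CPM and then none, at least 43.1-fold lower. A GDSL esterase gene (BdiBd21-3.1G0259000) had 2.61, 1.02 and 0.916 CPM and then none, at least 29.3-fold lower. Week 2 replicate 1 was the highest of each, as it was for the sum of the root cap, root lectin and Casparian strip genes, and the part of root tissue in these falls was not tested. Their root means at the 2 weeks were 67.1 ± 5.95 and 39.9 ± 3.14 CPM, 91.2 ± 28.6 and 80.0 ± 21.1 CPM and 128 ± 7.82 and 137 ± 15.9 CPM.

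Called genes shared a higher level and a greater length than the rest. Genes called higher had a median of 32.8 CPM in shoots and 2148 bases, those called lower 13.1 CPM and 1956 bases, and those not called 6.36 CPM and 1663 bases. Of 5 classes of equal size by level, the lowest had 2.82% called higher and 11.7% lower, and the highest 29.6% and 21.9%. More counts give a smaller error, and the part of depth in these shares was not tested. Over the 5 chromosomes the shares were 13.9% to 14.9% higher and 17.2% to 20.1% lower.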

How the data were processed

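RNA was measured in 12 libraries, 3 each of roots and shoots of untreated wild-type plants at week 2 and week 4. The authors' deposited table holds whole-number read counts per gene, with no scaling, together with each gene's position, length and best-match description. The submitters' processing notes name HISAT2 2.0.5, featureCounts 1.5.0-p3 and HTSeq 0.6.1 without their roles. The labels' protocols describe poly-T capture of messenger RNA and both a directional and a non-directional preparation, so counts of antisense and overlapping genes are uncertain. The table names no genome build, and gene names state sequence similarity only.

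Count columns were matched to samples by tissue, week and replicate number in the titles. The titles of the 3 week 4 shoot samples share 1 bracketed code, so their numbers rest on the replicate written out. The tests were run with edgeR 4.0.16 in R 4.3.3: filterByExpr (minimum count 10, minimum total 15), TMM scaling, and 1 quasi-likelihood fit (robust) of the 4 groups in all 12 libraries, with a prior count of 0.125. The contrasts were week 4 minus week 2 in shoots and the shoot change minus the root change. P-values were adjusted by Benjamini-Hochberg over all 26463 tested genes. The standard error was taken as the size of the log2 fold change over the root of its F statistic. It can be too small for genes with few counts. CPM is per 1e+06 of the TMM-scaled library. Replicates are samples from different plants, and every pair of shoot replicates differed by more than sampling noise. The fit was tested on simulated counts.

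The 38 gene lists and 5 marker lists were found by keyword in the best-match names, and lists are described by counts and medians. The members and lists were chosen with earlier results of these data known. Named genes are the 10 largest rises and falls, the largest called rise and fall and the highest mean CPM of each list described, the 10 highest mean CPM, and 3 at each end of the difference between shoots and roots. Others are said to be chosen after their values were seen. The alternatives were RLE and upper-quartile scaling, scaling without the 50 most counted genes, no low-count filter, CPM 1 in 3 libraries, DESeq2 1.42.0, limma-voom (limma 3.58.1), the shoot libraries alone, a block for the replicate number, a threshold of 0.01, a minimum fold change of 2 (glmTreat), and each library left out in turn.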

Additional observations from a re-analysis of the deposited data

Results flagged for a closer look

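For 37 of the named genes the change from week 2 to week 4 differed between shoots and roots in edgeR's test of that difference, at an adjusted p under 0.05. Values in brackets are the shoot log2 change minus the root log2 change.

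The shoot change was the more negative in 13 genes of chloroplast proteins. It was so too for pumilio homolog 7, whose best-match name also carries the word chloroplastic. Lipoxygenase 8, likewise described as chloroplastic, differed the other way, and both of these are given further on. Among the 13 were chlorophyll a-b binding protein 1 (-2.03), chlorophyll a-b binding protein 3C (-2.05), oxygen-evolving enhancer protein 1 (-1.82), thiamine thiazole synthase 2 (-1.10), the Rubisco small chains BdiBd21-3.4G0116800 (-1.51), BdiBd21-3.3G0340500 (-2.13) and BdiBd21-3.4G0120800 (-1.56). The rest were glutamate-1-semialdehyde aminomutase (-1.11), delta-aminolevulinic acid dehydratase (-1.64), ChlH (-0.93), chloroplast ribosomal protein L11 (-1.59), L12-2 (-1.31) and the more abundant lipoxygenase 2.3 gene (-4.08). A more negative difference need not be a fall in shoots. The antenna proteins, oxygen-evolving enhancer protein 1, the Rubisco small chains, ChlH and this lipoxygenase gene were not called in shoots. The photosystem and antenna list had a median log2 fold change of 0.02 in shoots and 1.29 in roots.

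Among growth and division genes it was the more negative for the 32 kDa subunit of replication protein A (-2.93), rough sheath 1 (-5.66), growth-regulating factor 1 (-2.67) and GH3.4 (-5.74), and the more positive for CUP-SHAPED COTYLEDON 2 (2.26) and YUCCA3 (1.51). Of light, clock and flowering genes it was the more negative for PRR1 (-1.48), REVEILLE 6 (-0.99) and the more abundant CONSTANS-LIKE 16 gene (-1.12) and the more positive for MADS-box factor 56, BdiBd21-3.3G0418600 (1.84).

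The shoot change was the more positive for the stalk protein P2B (6.62), lipoxygenase 8 (4.51), valine-tRNA ligase (4.12), CYP94C1 (4.00), GSTU6 BdiBd21-3.2G0538300 (3.98), 12-oxophytodienoate reductase 5 (3.31), ABCB11 (3.21), ABCB4 (3.08) and TIFY 10b (0.66). It was the more negative for pumilio homolog 7 (-3.55), the E3 ligase RNF181 (-2.30), the gene with a pollen Ole e I domain (-8.92), the subtilisin-chymotrypsin inhibitor (-8.41) and the GDSL esterase (-8.15). The last 3 had no count in week 4 shoots, so their fitted values depend on the prior count and are no bound.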

How the results depend on the processing

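With RLE or upper-quartile scaling, scaling without the 50 most counted genes, either low-count filter, DESeq2, limma-voom, the shoot libraries alone or a replicate block, the number of genes called stayed within a factor of 1.5 of 8966, from 7602 with the shoot libraries alone to 9964 with DESeq2. An adjusted p under 0.01 left 4918 genes (1834 higher, 3084 lower), and the test against a fold change of 2 left 899 (140 and 759), as stricter rules do by construction. The difference between shoots and roots was called for 614 genes (97 more positive, 517 more negative in shoots) at 0.01, for 61 (10 and 51) in the fold test, and for 3811 (1108 and 2703) with DESeq2, where the cause was not tested. Leaving out 1 library gave 6479 to 9327 called (2108 to 4105 higher, 4347 to 5664 lower) and 1318 to 3542 differences (244 to 640 more positive, 1048 to 2902 more negative). Replicate numbers were not taken to pair the samples, since the labels do not say so and in no pair of groups were all 3 correlations over 0.1. Same-numbered shoot libraries of the 2 weeks had correlations of deviations from their group means of 0.0862, -0.0467 and 0.176 across genes. Same-numbered shoots and roots had 0.179, 0.0697 and 0.111 at week 2, where each shoot library correlated best with its own number, a hint from the data and not from the design, and -0.115, 0.0447 and -0.106 at week 4. With a replicate block 8511 genes were called (3575 and 4936), and 1958 differences (477 and 1481). Of 90 named genes called, 62 kept their call under every alternative other than the 0.01 threshold and the fold test. Matching keywords over whole descriptions, chosen after the data were seen, took in unrelated genes, and for example the light and clock list then had 48 called higher and 43 lower of 188. Values with few counts, such as the genes without a count in week 4 shoots, are limited by depth, and 3 counts over the week 4 group are 0.0517 CPM. This floor covers counting error only.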
